A study of Mus musculus with 2 samples.

Results

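Genes for heat shock proteins, their J-protein partners, the protein disulfide isomerases and the unfolded protein response were described in small intestinal epithelium with and without Myh9, which encodes the myosin IIA heavy chain of non-muscle cells. Members were every row of the deposited expression table whose symbol belongs to the Hsp, Dnaj or Pdia families, together with 14 named genes of the unfolded protein response, and the rule used no measured value. It gave 76 members of 12631 gene rows. They comprised 19 heat shock protein genes, 38 J-protein genes, 5 protein disulfide isomerase genes and the 14 named genes. The Myh9 knockout group was 1 sample labelled Myh9-/-, and the control group was 1 sample labelled wild type. Both were C57BL/6, both were 8 weeks old, both were injected with tamoxifen once a day on 5 days, and RNA was taken from both at day 5. The Cre driver, the deleted exons and the sex of the mice are not given in the sources used here. Whether a sample is 1 mouse or a pool is not stated. Epithelial cells of both samples were released in the cold with EDTA and dithiothreitol, a thiol reductant that is itself used to provoke the unfolded protein response in cultured cells, so both samples shared that exposure.

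Values below are expression levels, which are the deposited values after removal of an added 1. The sources used here do not name their unit. Folds are the knockout over the control on the scale of level plus 1, which understates differences of genes at low levels. A gene was counted when its larger level was at least 1, and 1.4-fold, the cutoff the labels state, made it a higher or a lower call. With 1 sample per group there was no replicate error, no test and no p-value, and each difference is between these 2 libraries. Depth is unknown. Levels of different genes are not compared, because it is not known whether they were scaled by length. Myh9 itself was at 13.6 in the knockout and 99.5 in the control, 6.89-fold lower. The epithelial markers Epcam (633 in the knockout, 680 in the control) and Vil1 (808 in the knockout, 962 in the control) were present in both, and of 12 epithelial markers 2 were called higher and 1 lower. The T cell list was lower in the knockout (8 of 10 genes counted, summed level 454 against 988 in the control). Among all genes counted, 15.9% were called higher and 16.3% lower. None of the 6 endothelial markers had a row.

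Chaperones bind unfolded proteins and release them in cycles that spend ATP. HSP70 proteins do this with J proteins, which bring substrates and start ATP hydrolysis, and with HSP110 proteins, which exchange the nucleotide. In the cytosol the set is induced by the transcription factor HSF1. In the endoplasmic reticulum (ER), unfolded proteins are sensed by IRE1 (genes Ern1 and, in intestinal epithelium, Ern2), ATF6 and PERK. These raise chaperones through XBP1 and cleaved ATF6, and raise amino acid synthesis and CHOP (gene Ddit3) through ATF4. Secretory cells of the intestine, above all goblet and Paneth cells, depend on this response.

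The members lay mostly above the control by small amounts. Of 76 members, 51 had a higher level in the knockout than in the control and 25 a lower one, whereas over all rows 6259 were higher and 6372 lower. At 1.4-fold, 19 members were called higher, where 15.9% of all 12152 genes counted were, and 4 were called lower, where 16.3% were. The 19 were 26.0% of the 73 members counted. In either direction 32.3% of all genes counted were called, and 32.3% of all rows without the level minimum. A total of 66 members were at 1 or above in both samples. The other 7 counted members passed the level minimum through 1 sample only, 4 through the knockout and 3 through the control, so the direction of those was fixed by the minimum. The remaining 3 members (Hspa1a, Dnajb5 and Dnajb13) were below 1 in both. Without the level minimum the counts over all 76 members were the same, 19 higher and 4 lower, where 16.0% and 16.3% of 12631 rows were. With a minimum on the mean of both levels, 19 were higher and 3 lower of 71. The median log2 fold of the members counted was 0.21, and that of all genes counted was -0.00.

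The size of the differences was small. The 19 higher members were between 1.41-fold (Hspa5) and 2.02-fold (Hsph1) higher. At 2-fold only Hsph1 was higher and only Hspb11 was lower, 1 member in each direction, where 4.49% and 4.28% of all genes counted were. The calls nearest the 1.4-fold line were Hspa5 at 1.41, Ddit3 at 1.43 and Hspa4 at 1.43, with Hspe1 at 1.38, Hspa1b at 1.38 and Dnaja2 at 1.37 just under it. Hspa5, Ddit3 and Hspa4 lost their calls when the knockout was rescaled to the same upper quartile as the control, which left 16 members higher. Rescaling to equal totals, with genes of the mitochondrial genome and the 20 most abundant ones set aside, gave 24 higher and 4 lower. That scaling also moved the share of higher calls among all called genes to 61.1%, against 49.4% without it.

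**Figure D1:**
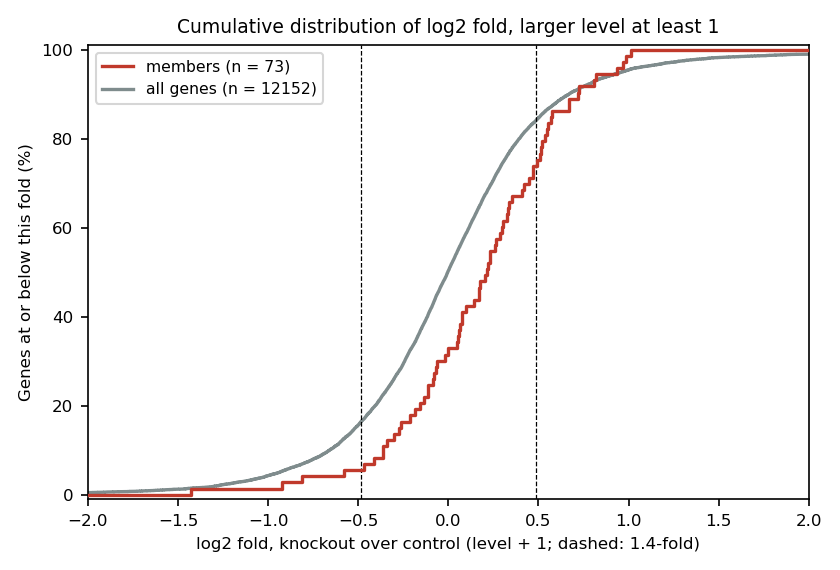
Cumulative distribution of the log2 fold (knockout over control, level plus 1) for the 73 members counted and for all 12152 genes counted. The medians are 0.21 for members and -0.00 for all genes, and the member curve ends at 1.01 (Hsph1), short of the upper tail of all genes.

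Of the 3 HSP90 genes 1 was called higher, and of the 10 HSP70 and HSP110 genes counted 4 were, with none lower in either group. Among all genes counted, 15.9% were called higher and 16.3% lower. Hsph1, which encodes HSP110, a nucleotide exchange factor of HSP70, was at 30.7 in the knockout and 14.7 in the control, 2.02-fold higher (chromosome 5, 149614287 to 149636376, minus strand, GENCODE M21 on GRCm38). Of the 12152 genes counted, 520 had a larger fold. Hspa4, another HSP110-type exchange factor, was at 65.0 in the knockout and 45.2 in the control, 1.43-fold higher. Hspa4l, the third gene of this group, was at 7.29 in the knockout and 8.26 in the control, so the HSP110-type genes did not all differ in 1 direction.

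Hsp90aa1, the stress-inducible cytosolic HSP90, was at 253 in the knockout and 143 in the control, 1.77-fold higher (chromosome 12, 110690605 to 110702728, minus strand). Its constitutive partner Hsp90ab1 was at 728 in the knockout and 626 in the control, 1.16-fold higher and under the cutoff. Hspa8, the constitutive HSC70, was at 778 in the knockout and 620 in the control, 1.25-fold higher and likewise under it. Hspa12a, a distant HSP70 relative, was at 1.77 in the knockout and 0.865 in the control, counted only through the knockout. Hspa14, which sits on ribosomes with the J protein of Dnajc2, was at 29.4 in the knockout and 23.2 in the control, and Hspa13, a microsomal HSP70, was at 6.72 in the knockout and 6.31 in the control.

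The classical heat-inducible genes were low in both samples. Hspa1b was at 2.55 in the knockout and 1.57 in the control, and Hspa1a was at 0.382 in the knockout and 0.818 in the control. These neighbouring genes on chromosome 17 are near-identical copies that can exchange reads, and their separate values are uncertain. Their sum was 2.93 in the knockout and 2.38 in the control, 1.16-fold higher. Dnajb1, the HSP40 partner that HSF1 induces with them, was at 15.3 in the knockout and 16.2 in the control. Of the 13 members on the list of HSF1-inducible genes, 12 were counted, 3 were called higher (Hsph1, Hsp90aa1 and Hspd1) and none lower, with a median log2 fold of 0.28. The 3 were 25.0% of those counted, near the 26.0% of all members counted, where 15.9% of all genes counted were higher. Among the genes counted and not called, Dnajb1, Dnajb4, Hspa4l and Hspb1 were under the control level. Dnajb4 was at 1.91 in the knockout and 2.87 in the control, and Hspa4l at 7.29 in the knockout and 8.26 in the control. Hspb1 was at 0.615 in the knockout and 1.05 in the control.

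Immediate early genes, which respond to stimuli within minutes, were also higher in part. Of 16 counted, 7 were called higher and none lower, with a summed level of 319 in the knockout and 238 in the control. Over all genes counted, 15.9% were called higher and 16.3% lower. Fosl1 and Nr4a1 (1.18 in the knockout, 0.399 in the control) passed the level minimum only through the knockout. Fos was at 43.6 in the knockout and 21.6 in the control, and Fosl1 was at 3.06 in the knockout and listed at 0 in the control. Their part in the heat shock gene values was not tested.

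Of the 3 small heat shock protein genes, none was called higher and 1 was called lower. Among all genes counted, 15.9% were called higher and 16.3% lower. Hspb11 was at 2.53 in the knockout and 8.49 in the control, 2.69-fold lower, the lowest fold of any member (chromosome 4, 107253593 to 107279938, plus strand). Only 174 of the 12152 genes counted had a smaller fold. Despite its symbol, this gene is best known as Ift25, a subunit of the intraflagellar transport complex. Hspb6 was at 1.57 in the knockout and 1.98 in the control, and Hspb1, the stress-inducible HSP25, was counted only through the control. These 3 genes thus all lay under the control level.

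Of the mitochondrial chaperonin pair, 1 gene passed the cutoff and the other lay just under it. Hspd1, which encodes HSP60, the barrel of the chaperonin, was at 181 in the knockout and 114 in the control, 1.59-fold higher. Hspe1, which encodes its lid HSP10, was at 201 in the knockout and 145 in the control, 1.38-fold higher and just under the cutoff. Hspa9, the mitochondrial HSP70, was at 150 in the knockout and 125 in the control, higher but under the cutoff. Hspd1 and Hspe1 lie head to head on chromosome 1 and their annotated exons share 112 bases on opposite strands. Named pseudogenes number 5 for Hspd1 and 6 for Hspe1, so reads can be misassigned between copies.

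The stretch between the RefSeq starts of this pair is shown because both genes are read out of it and it holds a heat shock element, the binding site of HSF1. The element was searched as GAA, any 2 bases, TTC, any 2 bases and GAA on either strand in 300-base windows, from 250 bases before to 50 after each start. Capitals mark the bases covered by 2 overlapping matches, at -89 to -72 from the start of Hspe1. The sequence is from RefSeq on GRCm38.p6, and its first and last bases adjoin the starts of Hspd1 and Hspe1.
Hspd1 to Hspe1, chr1:55087933-55088147, plus strand: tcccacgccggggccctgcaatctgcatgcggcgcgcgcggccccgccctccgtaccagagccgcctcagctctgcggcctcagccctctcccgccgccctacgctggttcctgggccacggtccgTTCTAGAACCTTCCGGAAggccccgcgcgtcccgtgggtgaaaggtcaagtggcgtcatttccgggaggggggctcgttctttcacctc
Of 62 members with a window in the table, 4 held the element (Hspd1, Hspe1, Hsph1 and Dnajb6), and Hspd1 and Hspe1 share the same bases. Over all 27025 genes with a window, 0.662% held it. Members were chosen by family symbol or name, so these counts are a description and not a test. The match of Hsph1, TTCTGGAAAGTTC, lies after its start. Dnajb6, a J protein that suppresses aggregation, was at 19.2 in the knockout and 16.2 in the control, so the genes with a match included members above and below the cutoff. A match describes letters only and does not show binding, and the 14 members with no window in the table, Hsp90aa1 and Hspa8 among them, were not searched.

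**Figure D2:**
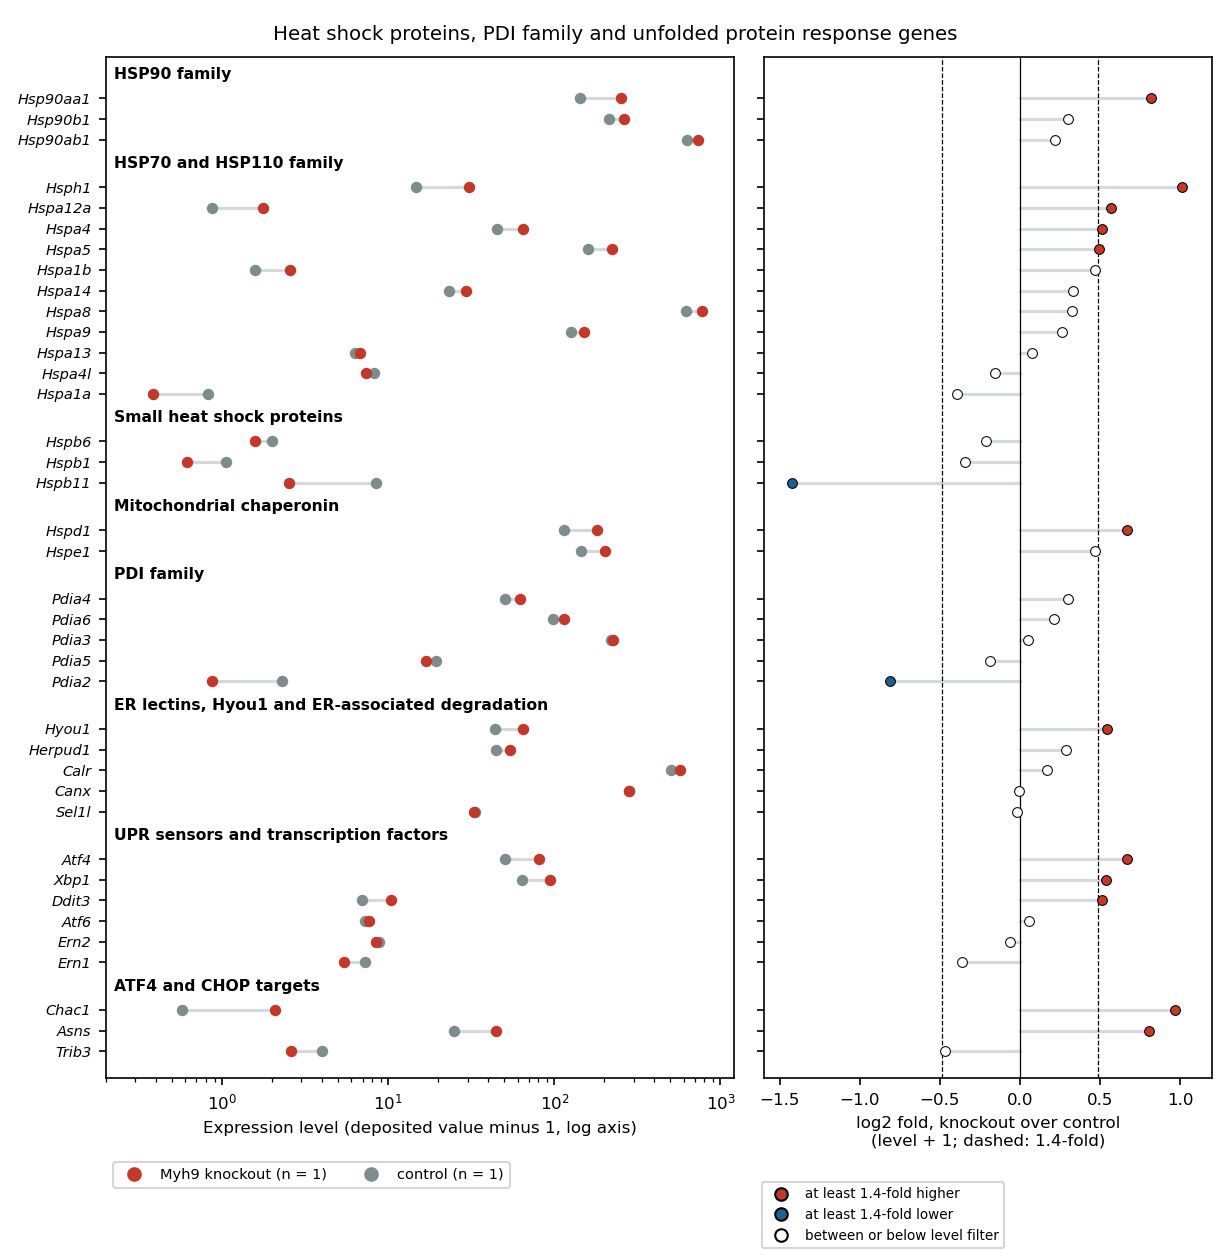
Level in the knockout and in the control (left, log axis) and log2 fold of level plus 1 (right) for the 38 members that are not J proteins, by role, with 1 sample per group and no error. Filled points passed 1.4-fold. Hsph1, Chac1, Hsp90aa1 and Asns lie farthest to the right at 1.01, 0.97, 0.82 and 0.81, and Hspb11 farthest to the left at -1.43.

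Among ER chaperones, the ER HSP70 gene, 1 of its exchange factors and 3 of 10 ER J-protein genes were called higher, and the median log2 fold of the ER J proteins was 0.07. Among all genes counted, 15.9% were called higher. Hspa5, which encodes BiP, the central ER HSP70 and the standard readout of ER stress, was at 223 in the knockout and 158 in the control, 1.41-fold higher (chromosome 2, 34771970 to 34777547, plus strand). Hyou1, an HSP110-type exchange factor of BiP, was at 64.6 in the knockout and 44.0 in the control, 1.46-fold higher. Dnajb11, a lumenal J protein (ERdj3) that hands substrates to BiP, was at 63.7 in the knockout and 43.1 in the control, 1.47-fold higher. These 3 genes had folds close to each other, whereas Sil1, another exchange factor of BiP that is no member, was at 14.3 in the knockout and 20.1 in the control.

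Dnajc10, a J protein with thioredoxin domains (ERdj5) that reduces disulfides for degradation, was at 22.6 in the knockout and 15.4 in the control, 1.44-fold higher. Dnajc1, a J protein of the ER membrane, was at 12.6 in the knockout and 7.24 in the control, 1.65-fold higher, and shares exon bases with Mllt10 on the opposite strand. Other ER J proteins did not pass. Dnajc3, which encodes the PERK-inhibiting p58IPK, was at 24.8 in the knockout and 22.4 in the control. Dnajb9 (ERdj4), an XBP1 target that restrains IRE1, was at 8.98 in the knockout and 11.1 in the control, under the control level although Dnajb11, also linked to XBP1, was above it. Dnajb12, which works in ER-associated degradation, was at 32.8 in the knockout and 42.4 in the control, and Dnajb14, Dnajc14, Dnajc16 and Dnajc25 were within 1.11-fold.

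Hsp90b1, the ER HSP90 (GRP94), was at 263 in the knockout and 213 in the control, 1.23-fold higher. The lectin chaperone genes Calr (568 in the knockout, 504 in the control) and Canx (281 in the knockout, 282 in the control) were under the cutoff, at 1.13-fold and 0.998-fold. Of the protein disulfide isomerases, Pdia4 was at 62.1 in the knockout and 50.3 in the control, Pdia6 at 114 in the knockout and 98.1 in the control, and Pdia3, the partner of the lectin chaperones, at 226 in the knockout and 219 in the control. None of these passed 1.4-fold. Pdia5 was at 16.8 in the knockout and 19.3 in the control. Pdia2, known as the pancreatic isomerase, was at 0.869 in the knockout and 2.28 in the control, 1.76-fold lower and counted only through the control. For degradation, Herpud1 was at 54.3 in the knockout and 44.4 in the control, and Sel1l, the scaffold of the HRD1 ligase, at 32.8 in the knockout and 33.2 in the control.

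Promoters of BiP, GRP94 and p58IPK are shown because they hold the ER stress element, searched on either strand as CCAAT, any 9 bases and CCACG, through which cleaved ATF6 acts, while their transcripts differed by unequal amounts. Sequences end at the base before the RefSeq start on GRCm38.p6, and capitals mark the element on either strand.
Hspa5, chr2:34771940-34772089, plus strand: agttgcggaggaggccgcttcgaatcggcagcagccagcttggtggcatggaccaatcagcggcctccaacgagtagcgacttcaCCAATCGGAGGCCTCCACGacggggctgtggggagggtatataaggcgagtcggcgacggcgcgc
Hsp90b1, chr10:86705445-86705694, minus strand: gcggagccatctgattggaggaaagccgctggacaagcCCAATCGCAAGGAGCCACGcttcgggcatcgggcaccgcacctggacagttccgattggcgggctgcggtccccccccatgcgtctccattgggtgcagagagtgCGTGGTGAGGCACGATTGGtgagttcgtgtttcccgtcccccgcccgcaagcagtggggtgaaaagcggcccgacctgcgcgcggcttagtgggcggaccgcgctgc
Dnajc3, chr14:118937782-118937931, plus strand: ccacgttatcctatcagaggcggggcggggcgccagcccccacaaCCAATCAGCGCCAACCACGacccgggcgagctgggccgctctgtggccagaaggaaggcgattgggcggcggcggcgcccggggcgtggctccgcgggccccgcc
Of 62 members with a window, 6 held the element (Hspa5, Hsp90b1, Pdia6, Calr, Dnajc3 and Canx), where 37 of 27025 genes did, 0.137%. The members were chosen by symbol as known genes of this response and related families, so the counts are a description and not a test. The element lies at -65 to -47 from the start in Hspa5, and Hsp90b1 holds 2 copies, at -212 to -194 and -107 to -89. Among these 6 genes the fold was 1.41 for Hspa5, 1.23 for Hsp90b1, 1.16 for Pdia6, 1.13 for Calr, 1.10 for Dnajc3 and 0.998 for Canx. Of these, Hspa5 passed the cutoff and the other genes did not. The shorter UPR element TGACGTGG, searched on both strands, was found in 1 member, Dnajc25, and in 0.714% of all genes with a window.

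Of the sensors and transcription factors, the factors Atf4, Xbp1 and Ddit3 passed the cutoff and the sensors Atf6, Ern1 and Ern2 did not. Xbp1, whose messenger RNA IRE1 splices, was at 93.7 in the knockout and 64.2 in the control, 1.45-fold higher, and the gene-level value does not separate spliced from unspliced messenger RNA. Atf4 was at 80.4 in the knockout and 50.3 in the control, 1.59-fold higher (chromosome 15, 80255184 to 80257541, plus strand). Ddit3, which encodes CHOP, was at 10.4 in the knockout and 6.99 in the control, 1.43-fold higher. Atf6 was at 7.63 in the knockout and 7.28 in the control, and Ern2, the IRE1 of goblet cells and other mucosal epithelium, was at 8.43 in the knockout and 8.83 in the control. Ern1, the ubiquitous IRE1, was at 5.38 in the knockout and 7.20 in the control, 1.28-fold lower and under the cutoff. Eif2ak3, which encodes PERK, is no member and was at 7.90 in the knockout and 5.79 in the control.

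Targets of ATF4 and CHOP were higher in 2 of 3 cases, where 15.9% of all genes counted were called higher and 16.3% lower. Asns, asparagine synthetase, was at 44.3 in the knockout and 24.9 in the control, 1.75-fold higher. Chac1, which degrades glutathione, was at 2.08 in the knockout and 0.570 in the control, 1.96-fold higher but counted only through the knockout. Trib3, a pseudokinase that CHOP and ATF4 induce together, was at 2.60 in the knockout and 3.98 in the control, 1.38-fold lower. It passed the cutoff downward with a pseudocount of 0.1, with none, and after the upper quartile rescaling. The ATF4 targets among the members therefore did not share a direction.

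Upstream stretches of Asns and Chac1 are shown because their levels differed most in this group and both hold the amino acid response element, searched on both strands as TGATG, any base, AA and any base, through which ATF4 acts. Capitals mark it. The Asns stretch ends at the base before the start, and the Chac1 stretch ends short of the start, with the element on the opposite strand.
Asns, chr6:7693210-7693309, minus strand: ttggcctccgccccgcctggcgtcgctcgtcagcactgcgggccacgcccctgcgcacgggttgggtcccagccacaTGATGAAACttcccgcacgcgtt
Chac1, chr2:119350992-119351141, plus strand: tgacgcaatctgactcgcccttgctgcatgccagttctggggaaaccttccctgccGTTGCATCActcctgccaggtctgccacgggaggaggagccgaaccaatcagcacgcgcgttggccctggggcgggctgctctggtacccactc
This short element is common: 4.50% of 27025 genes held it, and 5 of 62 members did, namely Asns, Chac1, Herpud1, Hspa14 and Trib3. Trib3, with the element after its start, was under the control level, and Asns and Chac1 were called higher. Herpud1 and Hspa14, which also hold it before the start, were not called, at 1.22-fold and 1.26-fold.

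Markers of secretory and immune cells differed in the same samples, where 15.9% of all genes counted were called higher and 16.3% lower. Plasma cells carry much ER, and of the 5 B and plasma cell genes counted 3 were higher and none lower, with a summed level of 804 in the knockout and 268 in the control. Igha was at 221 in the knockout and 50.4 in the control. Of 10 goblet cell genes, 1 was higher and 4 were lower (summed level 11777 in the knockout, 16176 in the control), with Muc2 at 44.9 in the knockout and 38.6 in the control. The higher goblet cell gene, Retnlb (2.21 in the knockout, listed at 0 in the control), passed the level minimum only through the knockout. Of 10 Paneth cell genes, 1 was higher and 8 were lower (summed level 9544 in the knockout, 17820 in the control), with Lyz1 at 1653 in the knockout and 2797 in the control. The higher gene of the Paneth list, Lyz2 (10.5 in the knockout, 4.54 in the control), is also on the macrophage and dendritic cell list. Fewer cells of a type and less RNA per cell cannot be told apart in such samples, and the part of these lists in the values of the ER genes was not tested.

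The 38 J-protein genes were the largest family. Of 36 counted, 7 were higher and 2 lower, with a median log2 fold of 0.16. The 7 were 19.4% of those counted, near the 15.9% of all genes, and 2 of them passed the level minimum only through the knockout. Outside the ER, Dnajc2, the ribosome-bound J protein that works with Hspa14, was at 35.5 in the knockout and 21.2 in the control, 1.65-fold higher. Dnajc17, a nuclear J protein, was at 17.6 in the knockout and 11.5 in the control, 1.49-fold higher, and shares exon bases with Zfyve19 on the opposite strand. Dnaja4 (1.69 in the knockout, 0.356 in the control) and Dnajb3 (1.94 in the knockout, 0.539 in the control) were counted only through the knockout. The cytosolic HSP70 partners Dnaja1 (32.5 in the knockout, 27.6 in the control) and Dnaja2 (51.7 in the knockout, 37.6 in the control) were 1.17-fold and 1.37-fold higher, under the cutoff.

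Of the lower J proteins, Dnajc4 was at 10.0 in the knockout and 19.9 in the control, 1.90-fold lower, and Dnajc28 was at 0.569 in the knockout and 1.35 in the control, counted only through the control. The next genes lay within the cutoff. Dnajc11, which associates with the cristae-organizing complex, was at 44.0 in the knockout and 32.6 in the control, and the import motor genes Dnajc15 (69.1 in the knockout, 66.6 in the control) and Dnajc19 (81.0 in the knockout, 85.7 in the control) were close to level. Dnaja3 was at 33.3 in the knockout and 28.7 in the control, and Dnajc30 at 13.6 in the knockout and 16.5 in the control.

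The remaining J proteins serve other machines. Dnajc9, a histone chaperone partner, was at 15.0 in the knockout and 11.5 in the control. Dnajc21, which acts in ribosome assembly, was at 10.7 in the knockout and 7.86 in the control. The endosomal Dnajc13 was at 23.1 in the knockout and 18.1 in the control. All of them were above the control by less than 1.4-fold. Dnajc5, Dnajc7, Dnajc8 and Dnajc22 were at least 1.07-fold higher but under the cutoff. Dnajb2 and Dnajc24 were up to 1.08-fold lower, and Dnajc12 was at 1.26 in the knockout and 1.79 in the control. Removing the 12 counted members that share exon bases with another gene of the table, Dnajc1, Dnajc17, Dnaja4 and Hspd1 among them, left 15 higher and 4 lower of 61.

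**Figure D3:**
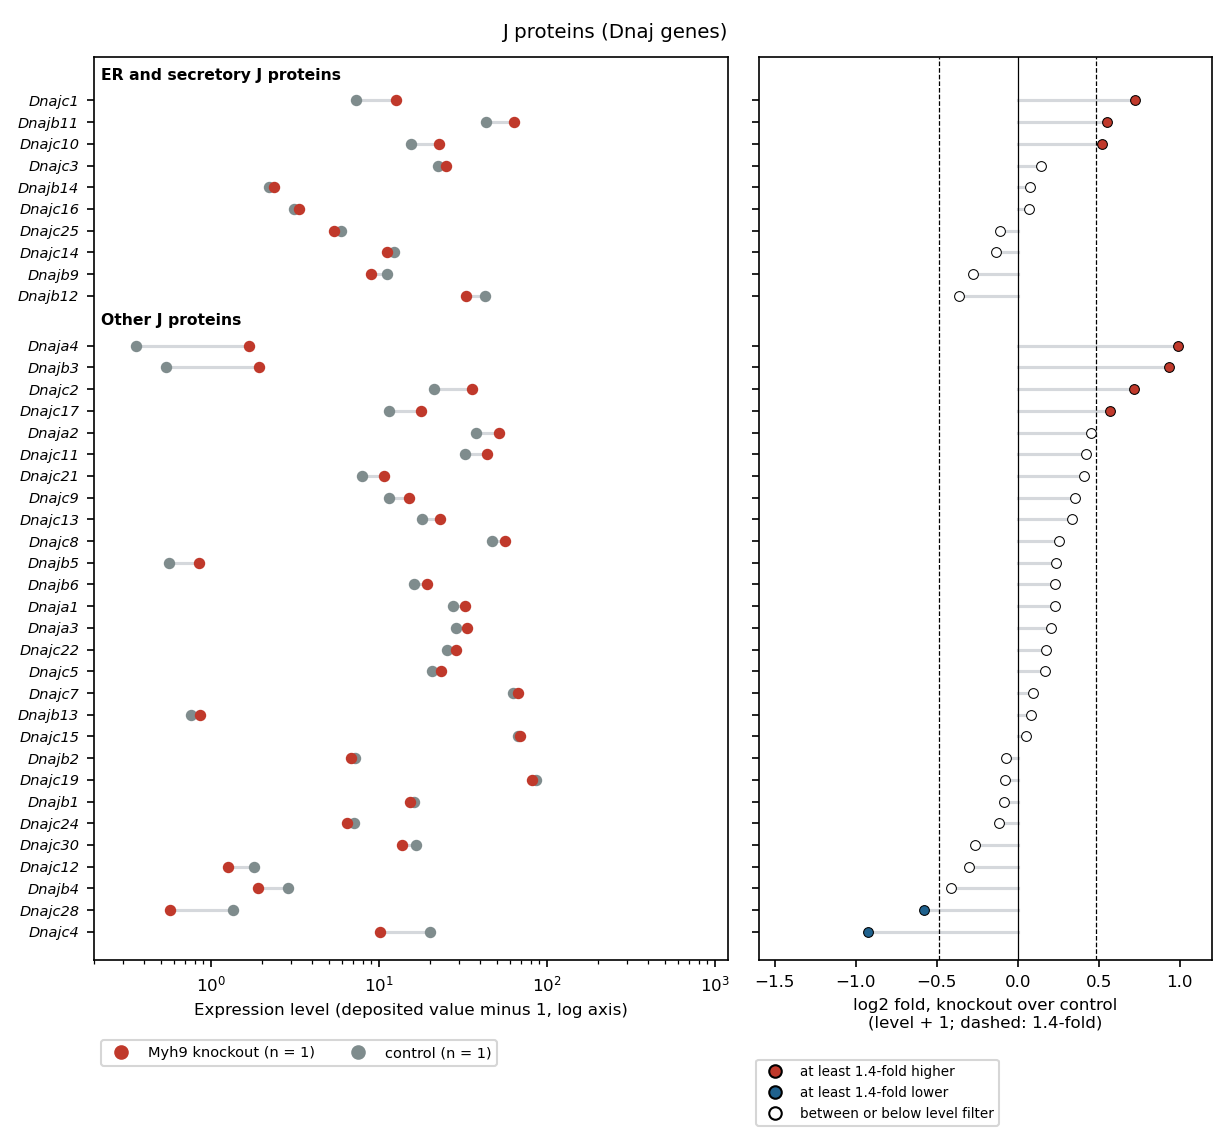
Level in the knockout and in the control (left, log axis) and log2 fold of level plus 1 (right) for the 38 J-protein genes, with 1 sample per group and no error. Filled points passed 1.4-fold: 7 to the right, with Dnaja4 at 0.99 and Dnajb3 at 0.93 counted only through the knockout, and 2 to the left, with Dnajc4 at -0.92.

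Other genes of these pathways, from lists of genes that are no members, were counted by the same rule. Among HSF and cytosolic co-chaperone genes, 9 of 28 were higher and none lower, 32.1% against the 15.9% of all genes counted. Several act on HSP90. Ahsa2 was at 14.2 in the knockout and 7.10 in the control. Ahsa1, which stimulates its ATPase, was at 93.7 in the knockout and 51.5 in the control, 1.80-fold higher. Ptges3 (p23) was at 47.4 in the knockout and 28.3 in the control, and Stip1, the adaptor between HSP70 and HSP90, was at 75.9 in the knockout and 51.8 in the control. Fkbp5, an HSP90-bound immunophilin induced by glucocorticoids, was at 42.2 in the knockout and 6.78 in the control, 5.55-fold higher, and Bag2 was at 5.48 in the knockout and 1.21 in the control. Fkbp5 thus stood far from the rest of that list. The other higher genes of that list were Ppid, Chordc1 and St13. Ppid was at 20.8 in the knockout and 10.9 in the control, and Chordc1 at 16.0 in the knockout and 10.0 in the control. St13 was at 114 in the knockout and 78.0 in the control. Some genes of the list that act on HSP90 were not called. Fkbp4 was at 183 in the knockout and 190 in the control, Cdc37 at 63.0 in the knockout and 62.2 in the control, and Ppp5c at 58.0 in the knockout and 53.3 in the control. Bag3, an HSF1 target, was at 13.8 in the knockout and 13.2 in the control, and Hsf1 was at 12.2 in the knockout and 8.64 in the control, 1.37-fold higher.

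The cytosolic chaperonin TRiC and its feeder prefoldin had 5 of 15 genes higher and none lower, 33.3% higher against the 15.9% of all genes counted. Cct6a was at 175 in the knockout and 111 in the control, Cct8 at 104 in the knockout and 70.3 in the control, Pfdn4 at 20.8 in the knockout and 13.5 in the control, and Pfdn2 at 84.9 in the knockout and 51.7 in the control. Subunits of 1 complex were not uniform, since Cct4 was at 93.4 in the knockout and 97.3 in the control and Pfdn5 at 149 in the knockout and 207 in the control.

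The ATF4 programme had 10 of 26 genes higher, 38.5% against the 15.9% of all genes counted, and 1 lower, with a median log2 fold of 0.42. Psat1 of serine synthesis was at 20.5 in the knockout and 5.82 in the control, 3.16-fold higher, and Phgdh, the first enzyme of that path, was at 35.6 in the knockout and 14.5 in the control, 2.37-fold higher. Slc7a5, the light chain of a large neutral amino acid transporter, was at 12.8 in the knockout and 4.10 in the control, 2.70-fold higher. Its partner Slc3a2 was the lower gene, at 159 in the knockout and 248 in the control. Gdf15, a stress cytokine, was at 2.24 in the knockout and 0.0773 in the control, counted only through the knockout. The other higher genes were the aminoacyl-tRNA synthetase genes Aars, Cars, Gars and Wars, the one-carbon enzyme gene Mthfd2 and Shmt2, which links serine to one-carbon units. Aars lay at the cutoff with 1.40-fold, and the synthetase genes Eprs, Nars and Sars were not called. Nor were Atf3, Cebpb and Nupr1 of this list. Among sensors, proteases and eIF2alpha kinases, 2 of 16 were higher and 1 lower, 12.5% and 6.25%, where 15.9% and 16.3% of all genes counted were. Mbtps2, the protease that releases ATF6 from the membrane, was at 6.33 in the knockout and 3.51 in the control, and Eif2s1, the alpha subunit of eIF2, was at 21.4 in the knockout and 13.2 in the control. Creb3l4, an ATF6 relative, was the lower gene, at 5.17 in the knockout and 9.85 in the control. Ppp1r15a (GADD34) was at 2.14 in the knockout and 1.36 in the control, under the cutoff.

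The ER folding and redox list had 4 of 33 genes higher and another 4 lower, 12.1% each way against 15.9% and 16.3% of all genes counted, with the median at -0.04 on the log2 scale. Fkbp11 was at 16.7 in the knockout and 6.99 in the control, the ER oxidase gene Ero1l at 26.0 in the knockout and 11.5 in the control, and Creld2 at 50.3 in the knockout and 28.8 in the control, 1.72-fold higher. Sdf2l1, a BiP and ERdj3 partner that is induced with them, was at 35.6 in the knockout and 21.99 in the control. On the lower side, the ER peroxiredoxin gene Prdx4 was at 18.8 in the knockout and 35.8 in the control Agr3 at 1.04 in the knockout and 2.95 in the control, and Cnpy2 at 52.6 in the knockout and 79.1 in the control. P4hb, the main protein disulfide isomerase, was at 769 in the knockout and 801 in the control. In ER-associated degradation 3 of 24 were higher and 4 lower, 12.5% and 16.7%, near the 15.9% and 16.3% of all genes counted. Syvn1, the HRD1 ligase, was at 26.1 in the knockout and 16.6 in the control, and the p97 partners Ufd1l (21.5 in the knockout, 14.5 in the control) and Nploc4 (34.5 in the knockout, 23.5 in the control) were higher too. By contrast, the mannosidase gene Man1b1 (20.3 in the knockout, 30.6 in the control) and the lectins Os9 (48.9 in the knockout, 71.8 in the control) and Erlec1 (10.99 in the knockout, 21.7 in the control) were lower. The ligase gene Rnf5 was the fourth lower gene, at 45.3 in the knockout and 65.5 in the control.

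**Figure D4:**
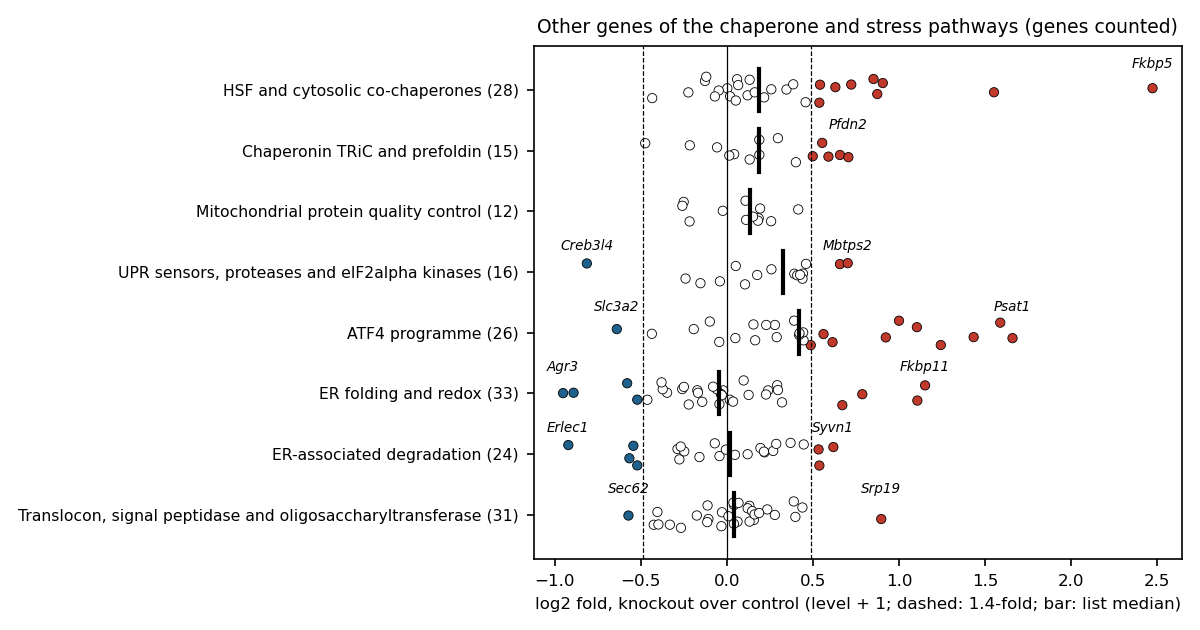
Log2 fold (knockout over control, level plus 1) of the genes counted in 8 lists of pathway genes that are no members, with the list median as a bar and 1 sample per group. Medians range from -0.04 (ER folding and redox) to 0.42 (ATF4 programme), and Fkbp5 lies farthest to the right at 2.47.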

How the data were processed

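RNA sequencing of 2 samples gave 1 deposited table with 1 signal value per gene and sample, an expression level to which the authors had added 1. No deposited value was below 1, and values had more than 6 significant digits only where 1 had been added (1218 in the knockout, 1118 in the control, none after subtraction). The deposited ratio, a fold change computed by the authors, equalled knockout over control on level plus 1, to within a relative difference of 1.22e-07. The submitters' processing notes name HISAT2, StringTie and mm10 and give no roles. Unit, row filter, depth and strand setting are not given in the sources used here. Depth could not be recovered: among 1720 genes low in both samples, at most 4 shared 1 between-sample ratio to 4 digits. Levels summed to 634492 in the knockout and 671114 in the control.

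Columns were matched to samples by the number in the titles, and groups came from the genotype label. Folds used a pseudocount of 1, a cutoff of 1.4 and genes at 1 or above in either sample, with no test (Python 3.11.15, pandas 2.3.3). The counting was run on simulated data with planted differences well beyond the cutoff and no genes at low levels. Calls near 1.4-fold or at levels near 1 were therefore not checked by it. Alternatives changed the pseudocount, the level minimum, the cutoff or the scaling. The genes to name were Myh9, all members other than J proteins, called J proteins and Dnaja1, Dnajb1, Dnajb9, Dnajb11, Dnajc3 and Dnajc10. From each pathway list they were up to 3 called genes per direction by log2 fold, with Eif2ak3, P4hb, Bag3, Hsf1 and Ppp1r15a. From each marker list they were up to 2 per direction, with Epcam, Vil1, Muc2, Lyz1 and Fos. Other J proteins were named to account for every member, and Ahsa1, Ptges3, Stip1, Cct8, Cct4, Pfdn5, Phgdh, Aars, Cars, Gars, Wars, Mthfd2, Shmt2, Sil1, Sdf2l1, Rnf5, C1qb, Lum, Tagln, Lonp1, Trap1 and Atf5 after their values were seen. The same holds for Nr4a1, Fkbp4, Cdc37, Ppp5c, Ppid, Chordc1, St13, Slc10a2, Eprs, Nars, Sars, Atf3, Cebpb and Nupr1. The members, lists, motifs and cutoffs were chosen with earlier results of these data known. Summed levels were given for marker lists only, each list between the samples, and rest on a scale between genes that is unknown. Those by role were left out for that reason. Positions are from GENCODE M21 on GRCm38, the assembly that mm10 denotes, where Ddit3 matched 2 entries and is given no position. Promoter windows are from RefSeq on GRCm38.p6, with 62 members matched.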

Additional observations from a re-analysis of the deposited data

How the results depend on the processing

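With 1 sample per group and depth unknown, neither sampling nor animal-to-animal error could be set, and folds at levels near 1 are the least certain. No paired analysis was possible because each group held 1 sample, and no sample could be left out. A pseudocount of 0.1 gave 7 lower members and no pseudocount 8, where the reported count was 4. The share of all genes called lower was 19.6% and 19.7% in those settings, against 16.3%. A larger level of at least 5 gave 2. At 2-fold, members numbered 1 higher and 1 lower, roles with more higher than lower calls numbered 1 in place of 8, and other pathway genes numbered 9 higher and 0 lower in place of 34 and 11. Rescaling to equal totals, with genes of the mitochondrial genome and the 20 most abundant ones set aside, gave a member median log2 fold of 0.32, while the median of all genes counted became 0.09, and it left 5 other pathway genes lower. The upper quartile rescaling gave a member median of 0.18 and 16 higher members. Hspa1a and Hspa1b summed as 1 gene, and removal of members sharing exon bases, were added after the data were seen, and the higher members numbered 19 and 15 there. Across these settings, other than the 2-fold cutoff, the higher members numbered 15 to 24. Motif counts before the start only were 3 for the heat shock element, 6 for the ER stress element, 4 for the amino acid response element and 1 for the UPR element.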

Other observations

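Lists next to the chaperones that were not described above differed little. In the mitochondrial protein quality control list, none of 12 genes passed 1.4-fold in either direction, with a median log2 fold of 0.13. Lonp1, the matrix protease, was at 43.3 in the knockout and 44.0 in the control, Trap1, the mitochondrial HSP90, at 62.1 in the knockout and 74.5 in the control, and Atf5, a factor of the mitochondrial stress response, at 7.91 in the knockout and 5.69 in the control. The chaperonin gene Hspd1 was thus called where this list held no call. In the list of translocon, signal peptidase and oligosaccharyltransferase genes, 1 of 31 passed upward and 1 downward, and the median log2 fold was 0.04. Srp19, of the signal recognition particle, was at 40.3 in the knockout and 21.2 in the control, and Sec62 was at 14.0 in the knockout and 21.3 in the control. Segment markers differed between the samples, with 5 of 9 proximal genes lower and 1 higher (Lct at 81.0 in the knockout and 279 in the control), and 3 of 9 distal genes higher and 4 lower (Fabp6 at 741 in the knockout and 125 in the control). Of these, the lower proximal gene Slc40a1 passed the level minimum only through the control, and the higher distal gene Slc10a2 only through the knockout. Whether segment differences bear on the chaperone genes was not tested. Of the 8 genes counted for macrophages and dendritic cells, 4 were called higher and 3 lower, but the higher C1qb, C1qc and Cd68 passed the level minimum only through the knockout. The same held for S100a9, 1 of 2 neutrophil genes called higher of 2 counted, and for Acta2, Lum and Tagln, 3 of 4 fibroblast and muscle genes called higher of 7. Of 3 erythrocyte genes, 2 were higher. Over all genes counted 15.9% were called higher and 16.3% lower.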
